A study of Rattus norvegicus with 6 samples.

Results

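Apolipoproteins are the protein coats of plasma lipoproteins, and 9 of them were examined in rat liver together with Mttp, the microsomal triglyceride transfer protein that loads lipid onto the nascent Apob chain. The 10 genes were taken by name, and their probes were those whose RefSeq accession belongs to one of them. This gave 16 of the 61537 probes and 10 of the 15645 gene symbols that could be named on the array. Apob had 5 probes, Apoc3 and Mttp had 2 each, and the other members had 1. All 16 probes were well above background on all 6 arrays, none carried an outlier flag and none was saturated.

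Liver total RNA came from 6 male Sprague-Dawley rats (stock Crl:CD(SD)), bought at 5 weeks of age and kept on a basal diet, with 1 array per animal. The vehicle group (n = 3) was given corn oil. The treated group (n = 3) was given TBBC, a phenolic antioxidant built of tert-butyl-m-cresol units bridged by sulfur, at 300 mg/kg/day. The series text gives 28 days and the treatment protocol gives 9 weeks as the length of dosing, and the labels do not settle which applies. Each array is a separate animal per the labels, and p-values here reflect variation among animals. The 3 vehicle arrays lay on one slide with one scan and the 3 TBBC arrays on another, so slide, scan and treatment cannot be told apart.

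Values are log2 of the processed Cy3 signal of a spot minus the 75th percentile of its array, so a value of 0 is the signal that the 75th percentile probe has. A gene with several probes is represented by the one with the highest mean over the 6 arrays. Differences are TBBC minus vehicle, tested with limma over 29326 features, and a gene rose or fell only where the Benjamini-Hochberg adjusted p was under 0.05. By that rule 3.08% of all features changed, 1.68% higher and 1.4% lower, and the median difference of all features was -0.06. The split of 492 higher and 410 lower calls moved to 746 and 306 with median centring and to 597 and 143 with spike-in scaling.

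The liver assembles very low density lipoproteins on Apob with the help of Mttp and sends them into blood as carriers of triglyceride. It also makes Apoa1 and Apoa2, the structural proteins of high density lipoproteins, and the small exchangeable proteins that switch lipases on or off or guide remnants to their receptors. In rodents Apoa4 is made by intestine and by liver. The genes lie in part as neighbours: in the assembly GRCr8, Apoa1, Apoc3, Apoa4 and Apoa5 follow each other, and so do Apoc2, Apoc4, Apoc1 and Apoe.

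Apoa4 and Apoc2 are the members that fell, and the sequence around their starts is shown to place them among the other members. Promoter windows of GRCr8 from RefSeq, 250 bases before to 50 bases after an annotated start, were listed for 5 of the 10 members: Apoa4, Apoa5, Apoc1, Apoc2 and Apoe. Capitals mark matches, on either strand, to 5 short motifs that do not overlap each other in these windows: AGGTCA, a unit of nuclear receptor elements; AAAGTCCA, a unit bound by the hepatocyte factor HNF4; TGACGT, a unit of cAMP response elements; GTTAAT, a unit of HNF1 sites; and TATAAA, a core promoter element. The Apoa4 window is chr8:55435529-55435828 on the plus strand and the Apoc2 window is chr1:88462316-88462615 on the minus strand, both printed in the direction of the gene.
Apoa4: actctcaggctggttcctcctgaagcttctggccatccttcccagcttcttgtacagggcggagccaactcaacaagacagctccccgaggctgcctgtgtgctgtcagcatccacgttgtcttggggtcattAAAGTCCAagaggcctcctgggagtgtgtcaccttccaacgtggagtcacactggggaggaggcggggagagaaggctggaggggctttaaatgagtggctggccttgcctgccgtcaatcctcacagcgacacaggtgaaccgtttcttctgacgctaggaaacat
Apoc2: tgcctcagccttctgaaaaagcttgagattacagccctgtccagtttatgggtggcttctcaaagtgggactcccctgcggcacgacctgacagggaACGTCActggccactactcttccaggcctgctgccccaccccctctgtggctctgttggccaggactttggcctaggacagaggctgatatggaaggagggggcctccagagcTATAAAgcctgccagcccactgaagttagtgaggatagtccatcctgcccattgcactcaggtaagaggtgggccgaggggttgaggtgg
In the Apoa4 window the capitals are 1 match to AAAGTCCA that begins 117 bases before the start. In the Apoc2 window they are TGACGT, read on the other strand, 153 bases before the start and TATAAA at 40 bases before it. AAAGTCCA was present in 1.37% of all 33469 windows, TGACGT in 7.94% and TATAAA in 14.2%. Among the 5 members with a window, AAAGTCCA was found for Apoa4 and TGACGT for Apoc2, while TATAAA was found for Apoc2 and Apoa5. Matches to AGGTCA (16.2% of all windows) were found for Apoa5, and to GTTAAT (7.45%) for Apoa5 and Apoc1. The windows of Apoe held none of the 5 motifs, which says only that these letters are not in them.

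Of the 10 members, 2 fell, 0 rose and 8 did not pass the test, against 1.4% of all features lower and 1.68% higher. The median log2 difference of the members was -0.34 and that of all features -0.06. Below the vehicle arrays without overlap lay 5 members, Apoa1, Apoa4, Apoc1, Apoc2 and Apoc3, where 18.8% of all features did so. Apoa2 alone lay above them, where 12.3% of all features did so. At an unadjusted p under 0.05 there were 6 members, against 23% of features.

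**Figure D1:**
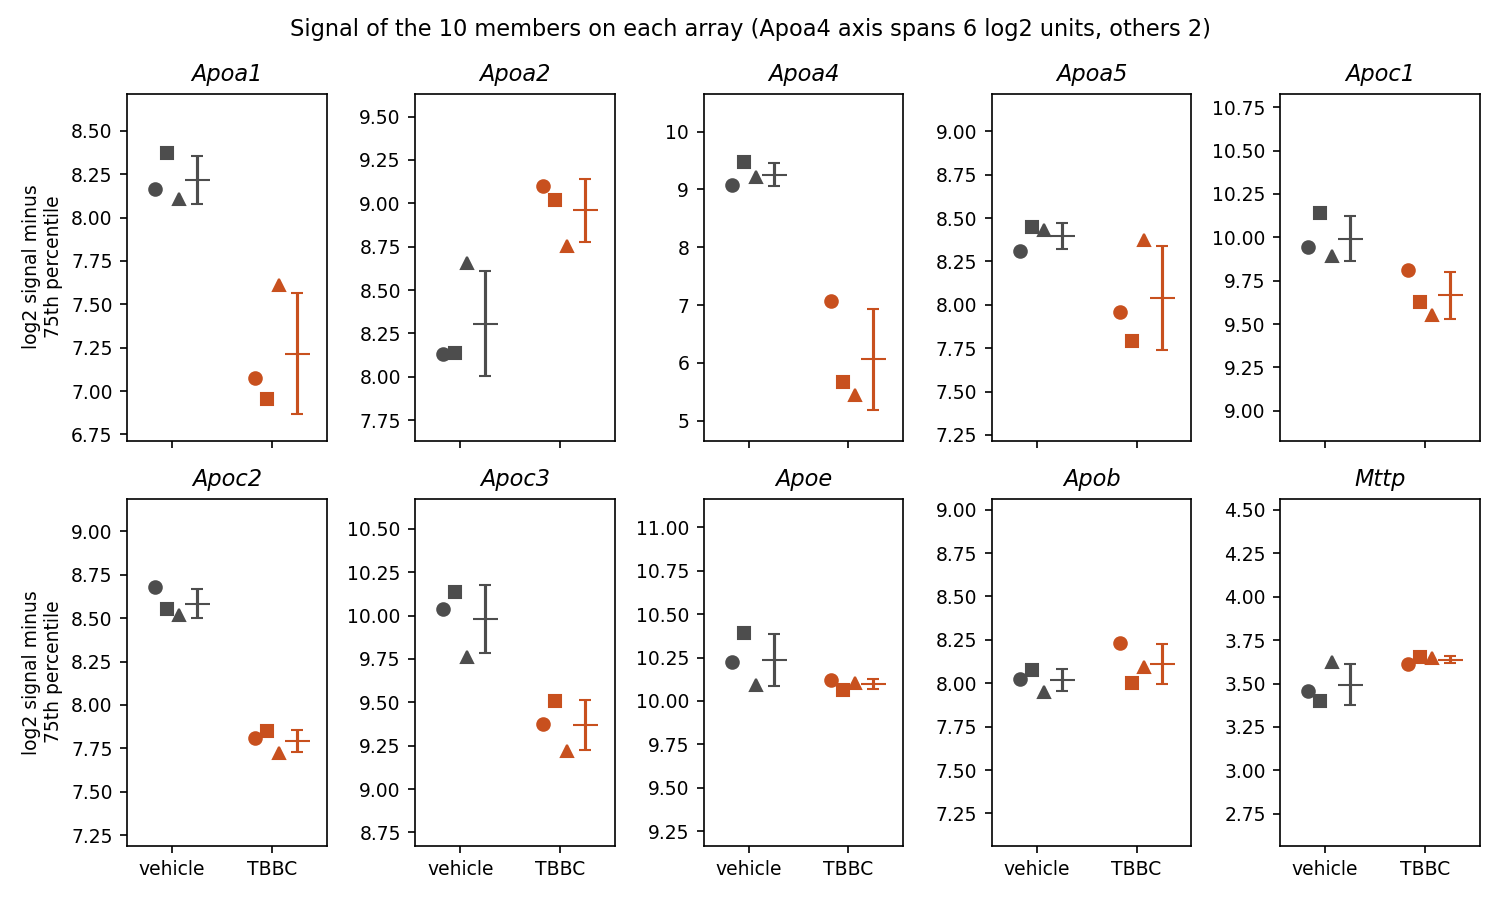
Log2 signal minus the array's 75th percentile (vertical axis) of the 10 members on the 3 vehicle arrays (grey) and the 3 TBBC arrays (orange); circle, square and triangle are replicates 1, 2 and 3, and the bar is the mean with its SD. Apoa4 falls from 9.26 to 6.06 on an axis that spans more units than the others, Apoa2 lies higher with TBBC, and Apoe, Apob and Mttp overlap between the groups.

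Apoa4 encodes a large exchangeable apolipoprotein of chylomicrons and high density lipoproteins, and it had the largest difference among the members. Vehicle replicates 1, 2 and 3 had log2 signals of 9.07, 9.48 and 9.22, and TBBC replicates 1, 2 and 3 had 7.06, 5.67 and 5.45. Every TBBC array was below every vehicle array, and TBBC replicate 1 stood above the other treated animals. In percent of the vehicle mean signal, the treated animals held 21.7%, 8.26% and 7.09%. The mean was 9.26 ± 0.21 (SD, n = 3) with vehicle and 6.06 ± 0.88 (SD, n = 3) with TBBC. Apoa4 thus fell by 3.20 ± 0.42 log2 units (SE, limma adjusted p = 0.0217), to 10.9% of vehicle with a 95% interval of 5.48% to 21.7%. Without TBBC replicate 1 it fell by 3.70 on the log2 scale and passed the test. With any other array left out the difference lay between -3.29 and -2.89 and did not pass (adjusted p = 0.0558 to 0.0808, without TBBC replicate 3 and TBBC replicate 2 respectively).

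Enterocytes also make Apoa4, and of 7 enterocyte markers 3 were tested: Fabp2, Alpi and Lct. Their summed linear signal, in units of the array's 75th percentile, was 2.40 to 3.14 on vehicle arrays and 2.11 to 2.67 on TBBC arrays, and 0 of the 3 passed the test. The enterocyte genes Vil1 and Cdx2 were not well above background on all arrays of either group, and Cdx1 and Si had no named probe. The 8 hepatocyte markers were all measured and summed to 4355 to 5208 on vehicle arrays and 4118 to 4536 on TBBC arrays, with a median difference of 0.04; Ahsg, a secreted glycoprotein, was the 1 that fell (-0.83 ± 0.125; limma adjusted p = 0.0292).

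The genes beside Apoa4 are Apoc3 and Apoa1 on one side and Apoa5 on the other. Apoa1, the main protein of high density lipoproteins and the activator of the cholesterol-esterifying enzyme Lcat, had log2 signals of 8.17, 8.37 and 8.11 on vehicle arrays and 7.08, 6.96 and 7.61 on TBBC arrays. The groups did not overlap, and TBBC replicate 3 was nearest to vehicle. The difference was -0.9996 ± 0.19 log2 units (SE, n = 3 per group), or 50.01% of vehicle (95% interval 36.3% to 68.9%). Its limma adjusted p was 0.050043, just outside the threshold. Apoa1 passed in 6 of 11 settings that kept all arrays and in 1 of 6 that left one out, that without TBBC replicate 3 (difference -1.20, adjusted p = 0.0397).

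Apoc3, an inhibitor of lipoprotein lipase and of remnant uptake, had log2 signals of 10.04, 10.14 and 9.76 with vehicle and 9.37, 9.51 and 9.22 with TBBC. All 3 treated animals were below all 3 controls. Its difference was -0.61 ± 0.14 (SE; limma adjusted p = 0.0784), and its other probe gave the same value to 2 decimals, -0.61 ± 0.15. Apoa5, which helps lipoprotein lipase act on triglyceride-rich particles, had log2 signals of 8.31, 8.45 and 8.43 with vehicle and 7.96, 7.79 and 8.37 with TBBC. The groups overlapped through TBBC replicate 3, and the difference was -0.36 ± 0.17 (95% interval -0.76 to 0.05).

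Within each array, the Apoa4 value was set against the mean of Apoa1, Apoc3 and Apoa5. That within-array difference was lower with TBBC by -2.54 (log2, a 5.82-fold change in the ratio), with no overlap between groups. The exact two-sided permutation test gave p = 0.1, the smallest that 3 against 3 allows, and 0.12 after adjustment over the 6 such comparisons made; the comparisons were chosen after the values were seen. Of the genes flanking the cluster, 6 other genes were measured, from Tagln to Sik3 on one side and Zpr1 and Bud13 on the other. None of these 6 passed the test. They ranged from -0.69 to 0.24 with a median of 0.07.

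**Figure D2:**
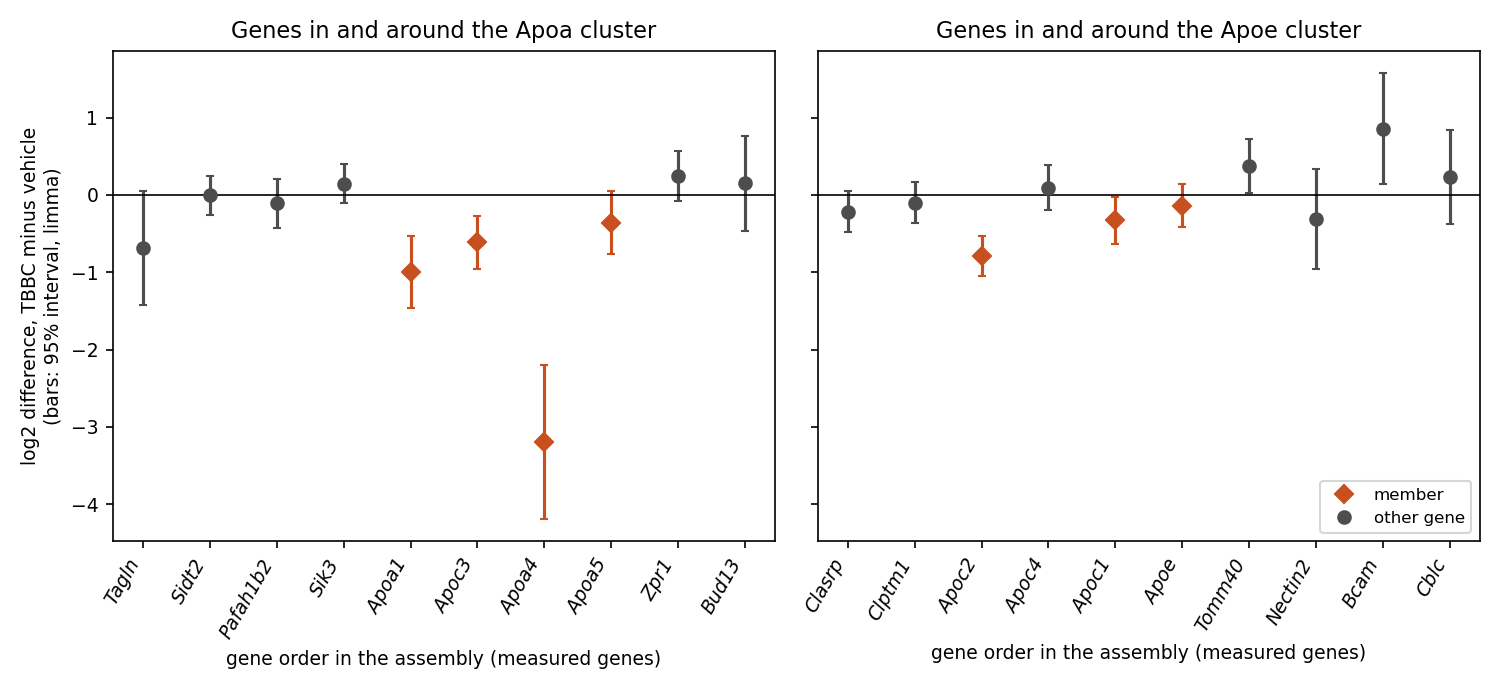
Log2 difference, TBBC minus vehicle, with its 95% interval (vertical axis) for measured genes in their order along the assembly (horizontal axis, no distance implied); diamonds are members and circles are other genes. In the Apoa cluster the 4 members lie at or below -0.36 and the flanking genes at -0.69 to 0.24; in the Apoe cluster Apoc2 lies at -0.79, while Apoc4 beside it lies at 0.09.

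Apoc2, the activator that lipoprotein lipase requires, is the other member that fell. In replicate order, its log2 signals were 8.68, 8.55 and 8.52 with vehicle and 7.81, 7.85 and 7.72 with TBBC. The treated animals were tightly grouped and all below vehicle, at 58.5%, 59.9% and 55.0% of the vehicle mean. Apoc2 fell by 0.79 ± 0.11 log2 units (SE; limma adjusted p = 0.0235), to 57.8% of vehicle with a 95% interval of 48.5% to 69.0%. With 1 array left out the difference lay between -0.82 (without vehicle replicate 3) and -0.74 (without vehicle replicate 1), and it did not pass in any of the 6 such fits (adjusted p = 0.0581 without vehicle replicate 3 to 0.0936 without vehicle replicate 1). With spike-in scaling it was -0.58 (adjusted p = 0.133). Without a filter on dim probes neither Apoc2 (adjusted p = 0.0695) nor Apoa4 (adjusted p = 0.0532) passed.

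The apolipoprotein genes beside Apoc2 in the gene order, Apoc4, Apoc1 and Apoe, differed less. Apoc4, a minor apolipoprotein next to Apoc2, had a difference of 0.09 ± 0.12. Apoc1, which slows remnant uptake, had log2 signals of 9.94, 10.14 and 9.89 with vehicle and 9.81, 9.63 and 9.55 with TBBC. The groups did not overlap, by a narrow margin, and the difference was -0.33 ± 0.13 (limma adjusted p = 0.195). Apoe, the ligand that binds remnants to hepatic receptors, had 10.22, 10.39 and 10.09 with vehicle and 10.12, 10.06 and 10.10 with TBBC. Those ranges overlapped, with a difference of -0.14 ± 0.12 (95% interval -0.42 to 0.14), and the sign turned with spike-in scaling (0.07).

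The within-array difference of Apoc2 and Apoe was lower with TBBC by -0.65, and that of Apoc2 and Apoc1 by -0.46, both without overlap (exact permutation p = 0.1, adjusted p = 0.12). That of Apoc2 and Apoc3, the lipase activator and the lipase inhibitor, was -0.18 with overlapping groups (exact permutation p = 0.3). Around this cluster, counting Apoc4, 7 other genes were measured and 0 passed, with differences from -0.31 for Nectin2 to 0.86 for Bcam.

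Macrophages also make Apoe, and the 9 Kupffer cell markers, all measured, summed to 92.0 to 198 on vehicle arrays and 94.9 to 206 on TBBC arrays, with 0 of 9 past the threshold. The 3 measured cholangiocyte markers summed to 1.01 to 1.18 with vehicle and 2.62 to 3.97 with TBBC, and 1 of them, Epcam, rose by 1.83 ± 0.21. Only 2 of these 3 had a positive difference, and the median of the list was 0.44. Of 5 stellate cell markers Rgs5 rose by 0.95 ± 0.12 and Pdgfrb fell by 0.73 ± 0.14, and the list summed to 6.44 to 8.02 with vehicle and 5.13 to 7.97 with TBBC. Rgs5 was the only stellate marker with a positive difference, and the median of that list was -0.35. The part of either list in the members' values was not tested. In bulk liver RNA, fewer cells of a type and less RNA per cell cannot be told apart.

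Apoa2, the other structural protein of high density lipoproteins, had a difference of the opposite sign to Apoa1. Its log2 signals were 8.13, 8.14 and 8.65 with vehicle and 9.10, 9.02 and 8.76 with TBBC. All treated animals were above all controls, but vehicle replicate 3 came close to TBBC replicate 3. The difference was 0.65 ± 0.18 (95% interval 0.21 to 1.09; limma adjusted p = 0.113), and it did not pass in any of the 17 alternative settings. The within-array difference of Apoa1 and Apoa2 was lower with TBBC by -1.65, a 3.14-fold change in their ratio, with no overlap (exact permutation p = 0.1, adjusted p = 0.12). Apoa1 and Apoa2 each already separated the groups, in opposite directions. The lack of overlap and the p of this comparison were thus fixed by those results and add no evidence.

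Apob, the non-exchangeable core protein of very low density lipoproteins, had log2 signals of 8.02, 8.08 and 7.95 with vehicle and 8.23, 8.001 and 8.10 with TBBC on its brightest probe. The groups overlapped, and the difference was 0.09 ± 0.11 (95% interval -0.18 to 0.36). Its other 4 probes gave differences of -0.21, -0.06, -0.13 and -0.42, each with an interval that includes 0, and the mean of the 5 probes gave -0.15. The sign of Apob therefore depends on the probe, and none of its probes passed.

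Mttp had log2 signals of 3.46, 3.40 and 3.62 with vehicle and 3.61, 3.65 and 3.65 with TBBC. Vehicle replicate 3 lay within the treated range. The difference was 0.14 ± 0.11 (95% interval -0.12 to 0.41), and its dimmer probe gave 0.30 ± 0.14. The intervals of Mttp and of the brightest Apob probe do not reach the difference measured for Apoc2, while that of the dimmest Apob probe does (-0.92 to 0.08).

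**Figure D3:**
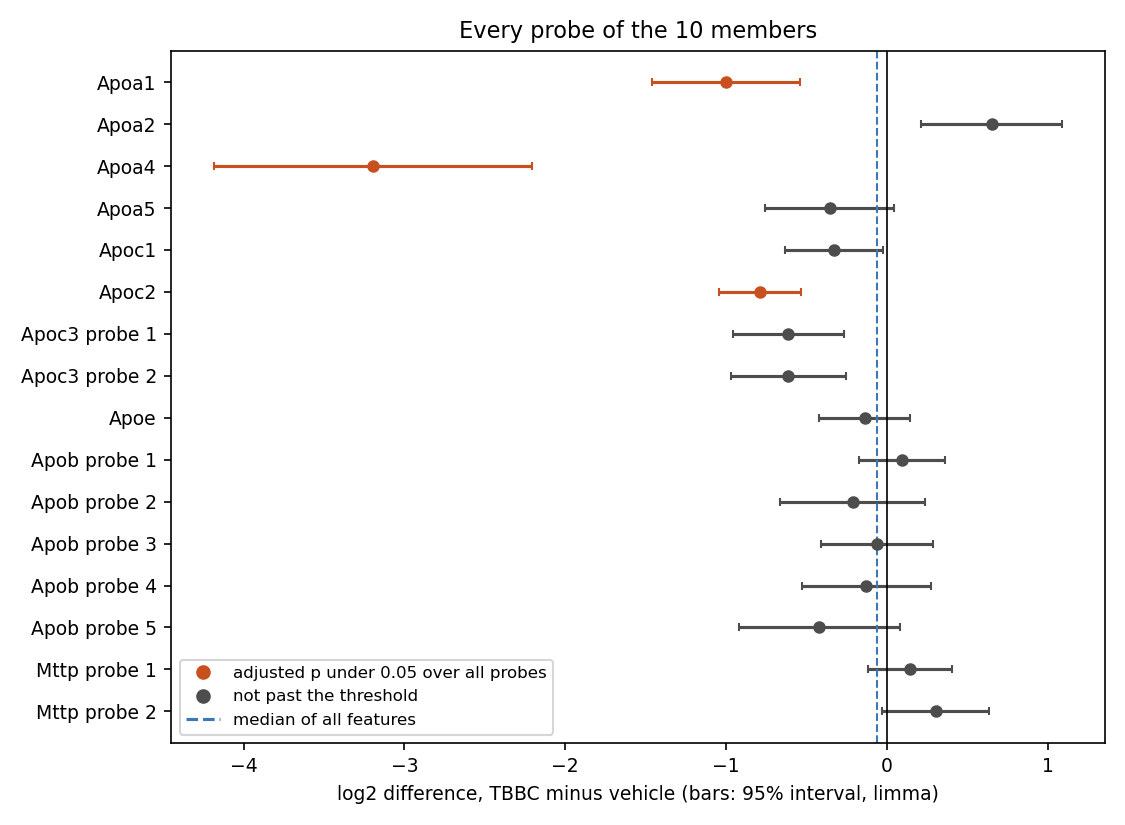
Log2 difference, TBBC minus vehicle, with its 95% interval (horizontal axis) for each of the 16 probes (rows), probes of a gene ordered from bright to dim; orange marks an adjusted p under 0.05 when every probe is its own feature, and the dashed line is the median of all features, -0.06. Apoa4 stands apart at -3.20, both Apoc3 probes lie at -0.61, and the 5 Apob probes lie on both sides of 0.

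When every probe was its own feature, 3 of the 16 passed, all lower, where 1.43% of 37222 probes were lower. They were the probes of Apoa4 (adjusted p = 0.0208), Apoc2 (0.0225) and Apoa1 (0.0488). The abundant members reached a large part of the scanner's range without saturating. The median pixel signal was at most 85.9% of the saturation value for Apoe, 78.9% for Apoc3, 64.6% for Apoc1 and 44.6% for Apoa2, and 37.9% for Apoa4. Whether the brightest spots respond in proportion to RNA was not tested.

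Genes that act with the members were taken from 5 lists of 83 genes, of which 67 were tested: 2 rose, 1 fell and 64 did not pass. Over all features 1.68% rose and 1.4% fell, the shares to set beside the counts of each list. No list was tested as a set. Of 17 genes of particle assembly and secretion, 14 were tested and 0 passed; 10 had a positive difference and the median was 0.18. P4hb, the disulfide isomerase that is the partner subunit of Mttp, had a difference of 0.21 ± 0.17, and Dgat2, which makes triglyceride, one of -0.66 ± 0.23. Of 11 other apolipoproteins, 7 were tested and 0 passed (median 0.09), with Saa4, a constitutive apolipoprotein of high density lipoproteins, at 0.15 ± 0.16. Apoh, which binds phospholipid, was at -0.07 ± 0.11, a sign that turned with median centring and spike-in scaling.

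In lipolysis and particle remodelling, 13 of 16 genes were tested, 1 fell and 0 rose (1.4% and 1.68% of all features), with a median of -0.40. The gene that fell was Angptl8, a feeding-induced inhibitor of lipoprotein lipase, by 0.93 ± 0.17 log2 units (SE; limma adjusted p = 0.0469); with 1 array left out it did not pass in any of the 6 fits (adjusted p = 0.0610 without vehicle replicate 2 to 0.142 without TBBC replicate 2), nor with median centring (adjusted p = 0.0649) or spike-in scaling (adjusted p = 0.202). Lcat, which esterifies cholesterol on high density lipoproteins with Apoa1 as cofactor, had a difference of -0.40 ± 0.12, and Pon1, an esterase carried on those particles, one of 0.13 ± 0.14.

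In receptors and uptake, 10 of 13 genes were tested, 2 rose and 0 fell (1.68% and 1.4% of all features), with a median of 0.37. Cd36, a scavenger receptor and fatty acid transporter, rose by 2.16 ± 0.27 (limma adjusted p = 0.0197). Sdc1, the heparan sulfate proteoglycan that binds remnants through Apoe and Apoa5, rose by 0.86 ± 0.11 (limma adjusted p = 0.0217). With 1 array left out, Cd36 passed only without vehicle replicate 3 (adjusted p = 0.0113; 0.0522 to 0.0795 in the other 5 fits, without vehicle replicate 1 and TBBC replicate 2 respectively), and Sdc1 in none of the 6 fits (adjusted p = 0.0611 without TBBC replicate 1 to 0.0806 without vehicle replicate 1). Lsr, a lipolysis-stimulated receptor, had a difference of -0.13 ± 0.11, which turned positive with spike-in scaling and with the mean of its probes.

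Of 26 transcriptional regulators of these genes, 23 were tested and 0 passed, with a median of -0.08. Creb3l3, a membrane-bound factor of the liver that acts on Apoa4, was at 0.06 ± 0.13 and Nr1h3, the oxysterol receptor LXR alpha, at -0.02 ± 0.13; the sign of Nr1h3 turned in 5 settings, and that of Creb3l3 without TBBC replicate 1. Hnf4a, named after its values were seen because a motif it binds was searched, was at -0.28 ± 0.20. Nr0b2, an atypical repressor of nuclear receptors, also named after its values were seen, had the lowest value among the regulators, -1.89 ± 0.42 (limma adjusted p = 0.0705).

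**Figure D4:**
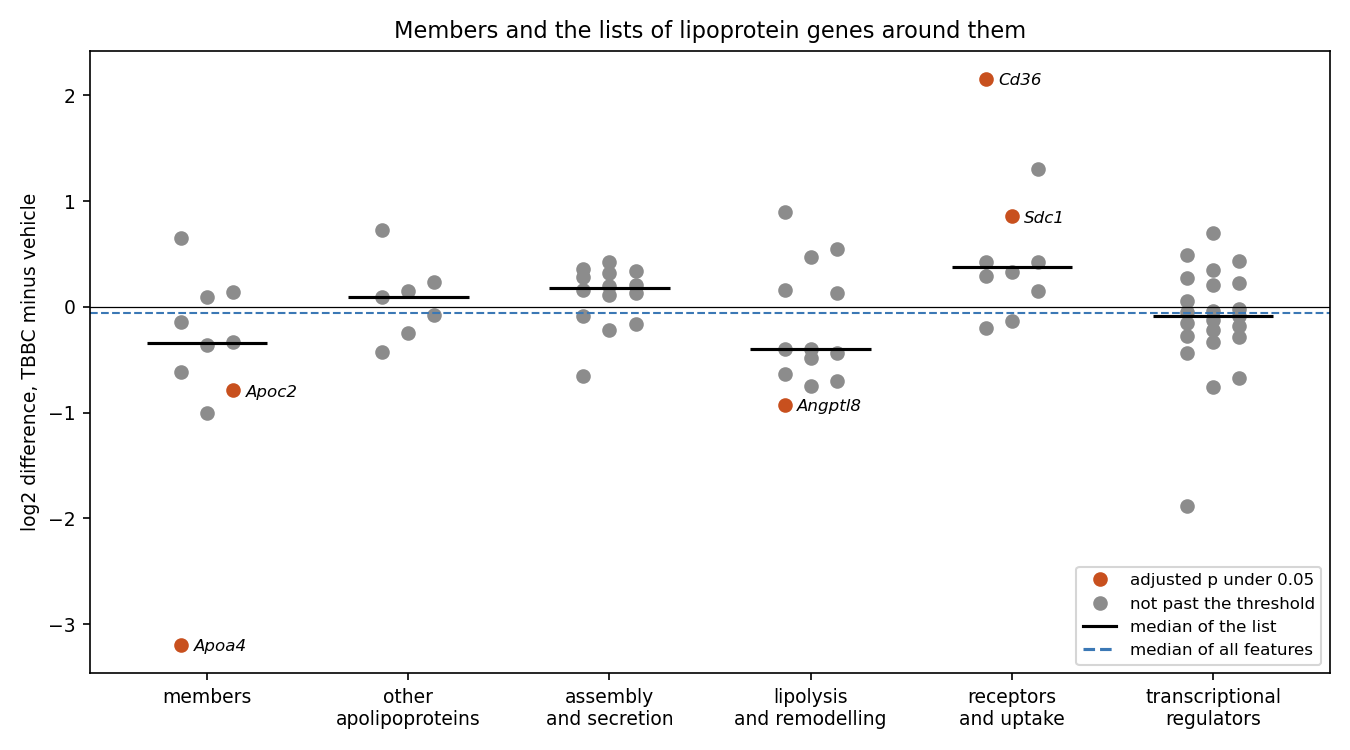
Log2 difference, TBBC minus vehicle (vertical axis), of each tested gene in the members and in the 5 lists (horizontal axis); orange points passed the threshold and are named, black lines are list medians and the dashed line is the median of all features. The medians are -0.34 for the members, -0.40 for lipolysis and remodelling and 0.37 for receptors and uptake.

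The named genes whose values over the 6 arrays ran most like those of Apoa4 were Dpf1 (Pearson r = 0.999), Slc39a8 (0.997) and Gltp (0.995), found among 11225 genes. Their own differences were much smaller than that of Apoa4, at -0.34, -0.52 and -0.40, since the correlation reads the order and spacing of the arrays and not the size. For Apoc2 they were Or10p22 (0.997), Hspb2 (0.995) and Ctdsp1 (0.995), with differences of -0.50, -0.92 and -0.33. With 6 arrays in 2 groups, high correlations extended beyond the genes named: 164 of 11225 exceeded 0.95 with Apoa4 and 174 with Apoc2.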

How the data were processed

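The authors' deposited scanner files hold spot intensity on a linear scale, extracted with Agilent Feature Extraction 10.7.1.1 per the file headers, on an array designed on rn4. The deposited value table holds the same intensity divided by 1 constant per array. Probes were named through RefSeq accessions in a gene table of GRCr8 (28206 of 61537 probes); control spots and 25 probes with an outlier flag were left out. Values were log2 intensity minus the array's 75th percentile, which was a signal of 465.2 to 638.2. A probe was kept (37222 in all) if every array of a group, or of both, flagged it well above background, and the brightest probe stood for a gene. Tests used limma 3.58.1 in R 4.3.3, two-sided, with Benjamini-Hochberg adjustment over 29326 features. On simulated data of that size, 51 of 100 features changed by 1 log2 unit and 84 of 100 changed by 2 were called, with 5 false calls. The simulated noise was normal, with each feature's SD taken from the 3 arrays per group, an imprecise estimate. Fewer features were also changed there than were called in the real data. For both reasons these rates need not carry over. The number of arrays limits the precision. Members and lists were chosen with earlier results of these data known. Named were all members, list genes past the threshold, the 2 brightest others per list and the 3 genes most like each member that fell. One gene that this rule names is not reported here. Of the design's fits, the slide as a block could not be fitted, since each group lies on its own slide, and the files hold no mean spot signal, so normexp used median signals.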

Additional observations from a re-analysis of the deposited data

How the results depend on the processing

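Apoa4 and Apoc2 were lower with TBBC in all 17 settings (11 that kept all arrays and 6 that left one out), from -3.70 to -2.89 and from -0.83 to -0.58. Apoa4 passed in 10 of them and Apoc2 in 8. Each has 1 probe, so several settings leave its estimate unchanged by construction. These are both filters, the mean of probes, the deposited value table, trend and robust, and the replicate block. The estimates stayed at -3.20 and -0.79 there, so these settings do not test the sign anew. The number of members past the threshold, 2, was 1 with spike-in scaling, 4 with normexp, 4 with eBayes trend and robust, 4 with array weights and 0 without a filter on dim probes (48957 features tested); it was 0 to 1 with 1 array left out. Of member probes, 3 passed, against 1 with spike-in scaling, 5 with normexp, 5 with trend and robust, 0 without a filter and 0 to 1 with 1 array left out. List genes past the threshold, 3, were 8 with normexp, 5 with array weights, 0 without a filter and 0 to 1 with 1 array left out. Of all features 902 changed, against 1589 with normexp, 194 without a filter and 104 to 365 with 1 array left out. The cause was not tested, other than that fewer arrays or more features enter some fits. Deviations from the group mean correlated at 0.00, -0.02 and 0.14 between same-numbered animals. Between the other animals they correlated at -0.10 to 0.09. These values do not settle whether the numbers pair the samples. With the replicate number as a block, 211 features, 0 members, 0 member probes and 1 list gene passed. Signs turned for Apob with the mean of its probes (-0.15) and Apoe with spike-in scaling (0.071). They also turned for Apoh with median centring (0.022) and spike-in scaling (0.14), Lsr with spike-in scaling (0.077) and the mean of its probes (0.14), and Creb3l3 without TBBC replicate 1 (-0.041). Nr1h3 was 0.073 with median centring, 0.19 with spike-in scaling, 0.088 with normexp and -0.078 to 0.069 with 1 array left out, positive without vehicle replicate 1 or TBBC replicate 3. Spike-in scaling raised the median of all features to 0.15. Both scalings subtract 1 constant per array, so they shift all features alike. The distance of the members from that median, -0.28, is thus the same in both by construction.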
